A study of Mus musculus with 109 samples.

Results

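Solute carriers are the membrane proteins that move amino acids, sugars, metals, ions, nucleosides and mitochondrial metabolites, and those expressed in mouse microglia were followed after a peripheral injection of lipopolysaccharide (LPS) and after loss of the IL-10 receptor. They were chosen by symbol (Slc, a number, a, a number) and selected on their level in the normalised table of floxed controls and Il10ra mutants, with a value of 10 or more in at least 4 of its 48 libraries. Of 12798 genes in that table, 184 matched the pattern. The rule leaves out 7 by name (Slc2a1, Slc2a5, Slc7a11, Slc30a1, Slc39a1, Slc39a4 and Slc39a14), and 29 fell below the level, and the rest are the members. Just inside the threshold, with 4 libraries, stood Slc19a2, Slc35a5 and Slc6a2, with means over all 48 libraries of 5.57, 5.28 and 2.10. Just outside, with 3 libraries, stood Slc16a9, Slc22a5, Slc25a14 and Slc25a35, with means of 3.34, 5.43, 5.64 and 5.04. Of the members, 80 reached 10 in all 48 libraries. For 147 members the libraries at 10 or more lay in 2 or more groups, and for 1, Slc43a3, they lay in 1 group, the floxed controls at 48 h. Slc6a12 reached 10 in 6 libraries of 3 groups, and without the Il10ra mutants at 48 h it would have missed the rule. All members stand in the table of double mutants, whose controls and double mutants the rule did not use. The symbol pattern also takes in genes that are not transporters themselves, such as Slc4a1ap, Slc7a6os, Slc9a3r1 and Slc2a4rg-ps. Slc3a2 is the heavy chain partner of carriers such as Slc7a5.

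Each solute carrier family is named for its sequence relatives and usually shares a kind of substrate, and members sit in the plasma membrane, in lysosomes and endosomes, or in the inner mitochondrial membrane. In macrophages, to which microglia are related, activation by LPS is known to go with changed uptake of arginine, glutamine and glucose, and with iron retention through lower export by ferroportin. IL-10, acting through a receptor that contains IL10Ra, is the best known brake on that activation, and TNF is one of the cytokines it restrains. The members were sorted by family into 8 substrate classes, with 30 in amino acids and peptides, 29 mitochondrial carriers, 22 each in metals and haem and in inorganic ions and pH, 15 in nucleosides, nucleotide sugars and vitamins, 13 each in sugars and in monocarboxylates and organic ions, and 4 in lipids and choline.

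RNA was measured by MARS-seq, a 3' tag method, in brain microglia that were sorted on CD45 and CD11b. LPS was given once into the peritoneum at 2.5 mg/kg. Il10ra mutants were CX3CR1-CreER:IL10Rafl/fl, with 9 untreated libraries and 7, 5 and 5 libraries at 6, 24 and 48 h. Their floxed controls were IL10Rafl/fl without Cre, with 6 untreated libraries and 6, 4, 6 and 4 libraries at 6, 24 and 48 h and 7 days. Double mutants were CX3CR1-CreER:IL10Rafl/fl:TNFfl/fl, with 5, 6 and 4 libraries (untreated, 6 and 48 h), and their doubly floxed controls were IL10Rafl/fl:TNFfl/fl, with 6, 5 and 6. There were also 4 untreated libraries from WT C57BL/6 mice. All but the last carried floxed alleles, and the mutants also carried the CX3CR1-CreER allele, which their controls lacked. The Cx3cr1 promoter is active in microglia and in other mononuclear phagocytes. The labels give neither age nor sex, and nothing in them says that the libraries of a group came from separate mice, so the p-values measure the spread between libraries.

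Recovered reads per library ran from 540642 to 2489084 over the 4 tables. Il10ra was at 62.1, 32.6, 53.7, 48.8 and 40.9 normalised reads in Il10ra mutants at 48 h and at 431 to 689, median 548, in floxed controls, so every mutant library lay below every control library. Tnf was at 6.19, 9.27, 4.39 and 4.51 in double mutants at 48 h and at 71.5 to 246, median 127, in doubly floxed controls. All 10 microglial markers were present in every group, and their summed level was 9337 to 15789 in Il10ra mutants at 48 h, 22839 to 28322 in floxed controls at 48 h and 36847 to 38618 in untreated floxed controls. All 9 neutrophil and all 6 monocyte markers were found in those mutants. Neutrophil markers summed to 28.3 to 1309.9 in Il10ra mutants at 48 h and to 26.6 to 241 in floxed controls, and monocyte markers to 4.80 to 75.4 in those mutants and 5.52 to 18.3 in floxed controls. Neuron markers, of which 2 of 5 were at 0 in both groups, summed to 8.82 to 20.4 in the mutants and 4.04 to 6.86 in the controls. In the floxed controls at 24 h, replicates 3 and 4 stood apart from replicates 1 and 2 for several members, and so did replicate 1 among the Il10ra mutants at 48 h. In sorted bulk samples, fewer cells of a type and less RNA per cell cannot be told apart. The level of a member is given in normalised reads of a 3' tag, a log2 difference is on the scale of log2 (value + 1), and ± after it is the standard error. A member is called at a Benjamini-Hochberg adjusted p under 0.05 over all genes tested.

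The promoters of 4 members are printed because these genes carry the contrasts described further on: Slc13a3 was higher in Il10ra mutants at 48 h, Slc46a3 and Slc9a9 were lower, and Slc7a8 differed in direction between sets of mutants. The windows are the 250 bases before and 50 bases after the RefSeq start (GRCm38.p6), read in the direction of transcription, and capitals mark a motif. They lie at chr2:165473148-165473447, minus strand (Slc13a3), chr5:147894766-147895065, minus strand (Slc46a3), chr9:94669642-94669941, plus strand (Slc9a9) and chr14:54781837-54782136, minus strand (Slc7a8).
Slc13a3: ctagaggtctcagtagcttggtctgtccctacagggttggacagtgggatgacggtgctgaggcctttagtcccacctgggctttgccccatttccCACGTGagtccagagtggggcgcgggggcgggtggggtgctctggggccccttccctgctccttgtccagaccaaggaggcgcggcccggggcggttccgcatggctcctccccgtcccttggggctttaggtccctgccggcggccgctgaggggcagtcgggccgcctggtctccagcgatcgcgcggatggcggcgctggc
Slc46a3: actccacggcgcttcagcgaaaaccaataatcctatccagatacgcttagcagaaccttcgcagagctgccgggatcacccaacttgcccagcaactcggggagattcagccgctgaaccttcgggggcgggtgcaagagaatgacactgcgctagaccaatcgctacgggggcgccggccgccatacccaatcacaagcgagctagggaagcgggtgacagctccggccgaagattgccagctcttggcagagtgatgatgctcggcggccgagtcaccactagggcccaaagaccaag
Slc9a9: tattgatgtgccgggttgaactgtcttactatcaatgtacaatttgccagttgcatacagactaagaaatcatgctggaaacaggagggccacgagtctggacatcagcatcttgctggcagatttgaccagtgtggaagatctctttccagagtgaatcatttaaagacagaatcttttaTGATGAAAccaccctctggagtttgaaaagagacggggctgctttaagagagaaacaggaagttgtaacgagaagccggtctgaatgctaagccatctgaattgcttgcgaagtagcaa
Slc7a8: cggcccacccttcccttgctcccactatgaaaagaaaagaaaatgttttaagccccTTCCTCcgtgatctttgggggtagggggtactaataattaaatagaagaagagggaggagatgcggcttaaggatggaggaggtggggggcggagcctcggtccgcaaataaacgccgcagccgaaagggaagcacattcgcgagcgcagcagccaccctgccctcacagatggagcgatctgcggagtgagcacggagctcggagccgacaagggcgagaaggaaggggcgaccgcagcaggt

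The 5 motifs searched on both strands were the PU.1 core GAGGAA, the NF-kB site, the interferon response element, the C/EBP-ATF element TGATGNAA and the E-box CACGTG. No match of 1 motif overlapped that of another in these 4 windows. Slc13a3 held the E-box, Slc9a9 held the C/EBP-ATF element, Slc7a8 held the PU.1 core on the opposite strand, and Slc46a3 held none of these letters. In RefSeq, 37 members had no promoter in the table, and the others had 154 promoters of 300 bases. The E-box stood in 14.9% of these and in 7.15% of all 32851 promoters. The PU.1 core stood in 22.7% of the members' promoters against 28.3% of all promoters, and the C/EBP-ATF element in 3.25% against 3.97%. The NF-kB site stood in 1.3% against 1.63%, and the interferon response element in 2.6% against 3.44%. The members share the pattern of their names and their families, so these shares are descriptions and say nothing about binding.

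At 6 h after LPS, 84 members had moved in floxed controls, and they moved both ways within nearly every class. The amino acid carriers Slc7a1, Slc1a5 and Slc7a5 and the heavy chain Slc3a2 were higher, and the amino acid carriers Slc36a2 and Slc7a8 were lower. The iron exporter Slc40a1 and the folate-family members Slc46a1 and Slc46a3 were lower. With all members tested, 45 were higher and 39 were lower at 6 h than in untreated mice, when 21.3% of all genes tested were called higher and 22.5% lower. The median log2 difference was 0.13 over the members and -0.05 over all genes tested. Within the experiment that held both groups, with 3 libraries each, 62 members were called. For fits within 1 experiment, here and below, the share of all genes called was not counted. The shares given belong to the full fit. The summed microglial markers were 18365 to 21386 at 6 h and 36847 to 38618 untreated, the neutrophil markers 129.8 to 1148 at 6 h and 5.53 to 750.2 untreated, and the part of either in these differences was not tested.

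In the class of amino acids and peptides, which includes Slc7a6os, 9 of 30 members were higher and 6 were lower at 6 h. Slc7a1, the cationic amino acid transporter that imports arginine, was at 89.1 to 208, median 139, normalised reads at 6 h, against 9.18 to 18.5, median 12.8, in untreated controls. The groups did not overlap, and the log2 difference was 3.46 ± 0.23, adjusted p = 1.6e-16. Slc1a5, which imports glutamine and other neutral amino acids, was at 42.8 to 64.1, median 49.4, at 6 h and 3.84 to 12.6, median 6.99, untreated, again without overlap (2.71 ± 0.31, adjusted p = 4.8e-10). Slc7a5 is the light chain of the large neutral amino acid exchanger, and it stood at 71.8 to 212, median 180.1, at 6 h and 13.8 to 37.1, median 27.9, untreated (2.61 ± 0.32, adjusted p = 3.1e-09). Its heavy chain partner Slc3a2 was at 1013 to 1415, median 1159, at 6 h and 396 to 559.6, median 465, untreated (1.24 ± 0.14, adjusted p = 2.8e-10), so every library of both chains lay above every untreated library. Slc15a3, a lysosomal carrier of histidine and small peptides, was at 572 to 1325, median 812, at 6 h against 222 to 260.5, median 253, untreated (1.99 ± 0.17, adjusted p = 2.7e-13). In the other direction, Slc36a2, a proton-coupled carrier of small amino acids, was at 1.002 to 5.09, median 1.76, at 6 h and 15.3 to 38.2, median 31.3, untreated (-3.28 ± 0.38, adjusted p = 8.9e-10).

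The class of sugars was divided, with 4 of 13 members higher and 5 lower at 6 h, and 1 of the 5 is Slc2a4rg-ps, which is not a transporter (-1.04 ± 0.41, adjusted p = 0.034). Slc2a3, the glucose transporter GLUT3, was at 10.3 to 52.1, median 33.4, at 6 h and 3.95 to 7.42, median 6.34, untreated, a log2 difference of 2.09 ± 0.40, adjusted p = 2.6e-05. Slc2a6, the lysosomal GLUT6, was at 10.3 to 29.3, median 20.1, at 6 h and 0 to 5.74, median 2.27, untreated (2.62 ± 0.45, adjusted p = 5.3e-06). Both rose without overlap. Slc37a2, a sugar phosphate carrier of the endoplasmic reticulum, was at 23.3 to 47.1, median 31.3, at 6 h and 168 to 219, median 192, untreated (-2.59 ± 0.24, adjusted p = 2.3e-12), and Slc2a8, an intracellular glucose transporter, was lower as well (-2.19 ± 0.18, adjusted p = 3.7e-14). Among monocarboxylate and organic ion carriers 4 of 13 were higher and 3 lower. They included Slc16a3, the lactate exporter MCT4, at 97.5 to 259, median 139, at 6 h and 45.01 to 88.4, median 60.0, untreated (1.09 ± 0.24, adjusted p = 2.4e-04), and Slc13a3, a sodium-coupled dicarboxylate carrier, at 51.6 to 104, median 71.9, at 6 h and 26.5 to 40.5, median 33.9, untreated (1.32 ± 0.27, adjusted p = 8.6e-05). Both groups stood apart for both genes. Within the single experiment, Slc16a3 was no longer called (0.51, adjusted p = 0.1).

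Iron carriers moved in opposite directions. Slc40a1, ferroportin, the known cellular iron exporter, was at 9.02 to 20.9, median 12.6, at 6 h and 145 to 208, median 159, untreated, a log2 difference of -3.49 ± 0.34, adjusted p = 5.7e-12. Slc11a2, the divalent metal importer DMT1, was at 95.7 to 303, median 136, at 6 h and 33.2 to 58.7, median 43.5, untreated (1.68 ± 0.30, adjusted p = 1.0e-05). The 6 h libraries were all below the untreated ones for ferroportin and all above them for DMT1. In the whole class of metals and haem, 7 of 22 were higher and 6 lower. The copper carriers Slc31a1 and Slc31a2 were among those higher, with log2 differences of 0.75 and 1.18. Slc11a1, the phagosomal metal carrier NRAMP1, was at 600.0 to 1252, median 761, at 6 h and 676 to 868, median 715, untreated, which overlap, and it was not called (0.25 ± 0.14, adjusted p = 0.13).

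Folate and vitamin carriers had the member with the lowest log2 difference of those that passed the naming rule. Slc46a3, a lysosomal relative of the folate transporter, was at 5.01 to 11.5, median 8.09, at 6 h and 118 to 186, median 143, untreated, a log2 difference of -3.96 ± 0.32, adjusted p = 2.7e-14. Slc46a1, the proton-coupled folate transporter, was at 16.1 to 40.1, median 25.9, at 6 h and 101 to 129, median 115.9, untreated (-1.996 ± 0.35, adjusted p = 5.5e-06). Neither overlapped. Slc19a1, the reduced folate carrier, was higher (1.13 ± 0.25, adjusted p = 1.8e-04), in the other direction from Slc46a1. In that class 5 of 15 were higher, with the nucleoside transporter Slc29a2 showing the greatest difference of these 5 (2.36 ± 0.29, adjusted p = 5.0e-09), and 5 lower. In the class of inorganic ions and pH, which includes Slc4a1ap, 8 of 22 members were higher and 6 lower, and 1 of the 8 is Slc9a3r1, which is not a transporter (1.34 ± 0.24, adjusted p = 1.1e-05). Slc9a9, the endosomal sodium-proton exchanger, was at 17.2 to 69.2, median 40.3, at 6 h and 62.0 to 151, median 98.5, untreated (-1.34 ± 0.33, adjusted p = 8.5e-04), with overlap, and was not called within the single experiment (-0.85, adjusted p = 0.18). Of the 29 mitochondrial carriers 8 were higher and 6 lower. The glutamate carrier Slc25a22 led them, at 111.97 to 259, median 135, at 6 h and 20.2 to 52.3, median 23.7, untreated (2.38 ± 0.25, adjusted p = 5.7e-11), without overlap.

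**Figure D1:**
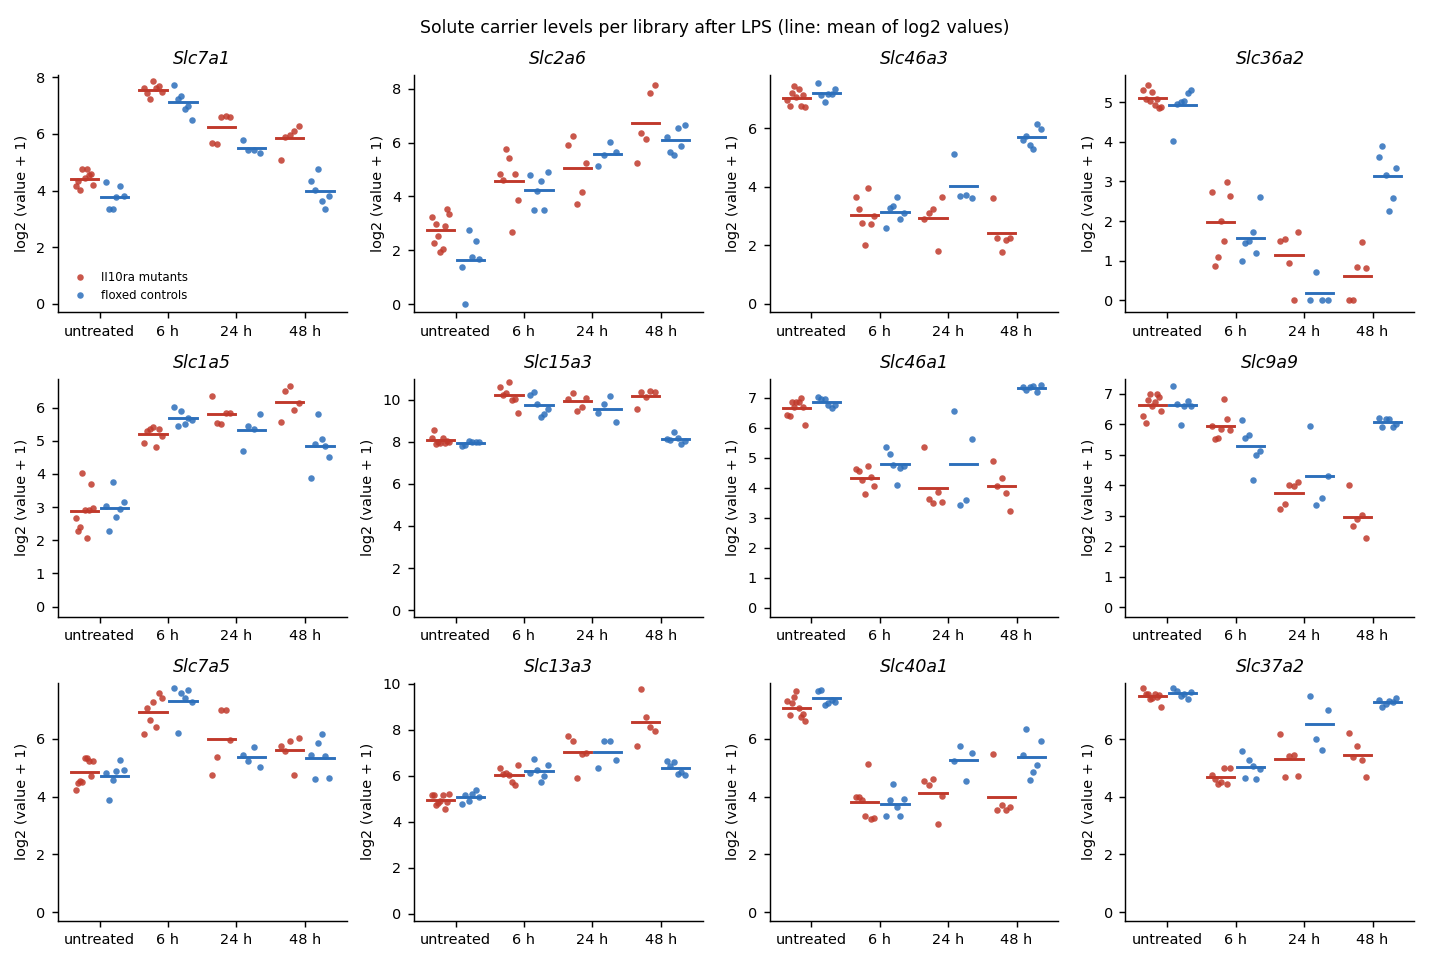
Levels of 12 members per library on the log2 (value + 1) scale (vertical axis) by time after LPS (horizontal axis), with Il10ra mutants in red left of floxed controls in blue, points for libraries and lines for the mean of the log2 values. At 48 h the red libraries of Slc15a3 and Slc13a3 lie above the blue ones, and those of Slc46a3, Slc46a1, Slc9a9 and Slc37a2 lie below them.

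By 24 h, 35 members were higher and 22 lower than in untreated controls, with 14.5% and 14.2% of all genes tested called in those directions. By 48 h, 30 were higher and 10 lower, with 12.6% and 8.9% of all genes. Those called at 48 h include Slc43a3, which met the level rule only through the floxed controls at that time. Within 1 experiment the counts of called members were 46 at 24 h and 50 at 48 h. The summed microglial markers were 14968 to 22434 at 24 h and 22839 to 28322 at 48 h, against 36847 to 38618 untreated, and their part in these differences was not tested. Over the 3 times, 18 members were called higher each time, 7 were called lower each time and 49 were called at none. Of the members called at 6 h, 26 that were higher and 29 that were lower then were not called at 48 h. These patterns were counted over the members only and not over all genes tested. They therefore cannot be called particular to the members. Only Slc22a17, a member of the organic ion transporter family, was called in opposite directions at 6 and 48 h, among these members and in this fit (-0.64 at 6 h and 0.63 at 48 h).

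The glucose transporter Slc2a6 took its highest levels late. It was at 0 to 5.74, median 2.27, untreated, 10.3 to 29.3, median 20.1, at 6 h, 45.3, 63.1, 33.999 and 48.6 at 24 h and 45.7 to 99.9, median 65.5, at 48 h. Its log2 difference from untreated was 2.62 at 6 h, 3.84 at 24 h and 4.62 ± 0.45, adjusted p = 2.3e-11 at 48 h. Slc10a6, a carrier of sulfated steroids, had log2 differences of 2.31, 2.88 and 3.58 ± 0.48, adjusted p = 8.9e-08 at the same times. Slc7a1 took another course, with 42.1, 42.1, 54.6 and 39.2 at 24 h and 9.15 to 26.001, median 14.05, at 48 h, where it was no longer called (0.03 ± 0.23, adjusted p = 0.94). Slc7a5 and Slc15a3 were likewise not called at 48 h (0.33 and 0.26), whereas Slc1a5 and Slc3a2 were (1.80 ± 0.30, adjusted p = 8.9e-06 for Slc1a5).

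Of the members that were lower at 6 h, some were no longer called at 48 h. Slc46a1 was at 146.5 to 171, median 163, at 48 h (0.49 ± 0.34, adjusted p = 0.33). Its 48 h libraries all lay above the untreated ones, at 101 to 129, median 115.9. Slc37a2 was at 137 to 169.6, median 157.5, at 48 h (-0.26 ± 0.24, adjusted p = 0.47). Untreated libraries of Slc37a2 were at 168 to 219, median 192. Neither gene was called. Slc46a3 was still called lower, at 38.3 to 69.1, median 49.4, (-1.63 ± 0.31, adjusted p = 8.8e-05), as was ferroportin, Slc40a1, at 22.8 to 80.8, median 38.1, (-2.08 ± 0.33, adjusted p = 3.4e-06). Slc36a2 was at 0.657, 0, 0 and 0 at 24 h, where 3 of 4 libraries had no read, and at 3.76 to 13.7, median 8.52, at 48 h (-1.90 ± 0.37, adjusted p = 1.3e-04). At 24 h the controls differed among themselves: Slc46a1 was at 9.86, 11.1, 93.8 and 48.6, Slc37a2 at 63.1, 48.7, 181 and 127.98 and Slc9a9 at 9.2, 11.1, 60.8 and 18.7 in replicates 1 to 4. Replicate 3 was the highest for all 3 genes.

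At day 7, 3 members were called, when 4.1% of all genes tested were, and without day 7 replicate 1 only 1 was. Slc2a6 was at 15.3, 14.1, 13.2 and 10.7 at day 7 and 0 to 6.23, median 2.46, untreated, without overlap (2.11 ± 0.38, adjusted p = 6.2e-04). Slc20a1, a phosphate importer, was lower (-0.77 ± 0.19, adjusted p = 0.013), and so was Slc7a1 (-0.96 ± 0.26, adjusted p = 0.03). Without day 7 replicate 1 the adjusted p was 0.08 for Slc20a1 and 0.11 for Slc7a1 in limma. Neutrophil, erythroid, monocyte and border macrophage markers were higher in the day 7 libraries without overlap. Oligodendrocyte, endothelial, astrocyte and neuron markers overlapped with the untreated ones. Neutrophil markers (all 9 found) summed to 2588 to 19388 at day 7 and 6.01 to 815 untreated, and erythroid markers (all 5) to 1598 to 3599 at day 7 and 0 to 257 untreated. Monocyte markers (all 6) summed to 216 to 673 at day 7 and 17.2 to 36.7 untreated, and border macrophage markers (all 8) to 193 to 462 at day 7 and 12.5 to 58.4 untreated. Microglial markers summed to 38836 to 43294 at day 7 and 40036 to 41908 untreated, and the part of any of these in the differences was not tested. All day 7 libraries came from 1 experiment of their own, which cannot be told apart from the time.

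The doubly floxed controls gave the same times in separate libraries that the choice of members did not use. At 6 h, 46 of 147 members tested were higher and 30 lower than in untreated mice of that genotype, with 21.6% and 21.1% of all genes tested, and 69 were called within 1 experiment. The summed microglial markers were 17013 to 20138 at 6 h and 36984 to 41143 untreated. The neutrophil markers were 33.6 to 6783 at 6 h and 1.48 to 899 untreated, the monocyte markers 20.95 to 493.03 at 6 h and 5.42 to 27.1 untreated, and the part of any of these in the differences was not tested. Of the members called at 6 h in floxed controls 77.4% were called in the same direction here, which is 85.5% of those called here, and 0 were called in the opposite direction. Over all genes the shares were 76.9% and 77.5%. Slc7a1 was at 145, 125, 128.4, 64.6 and 127 at 6 h and 6.68 to 28.2, median 10.04, untreated (3.23 ± 0.33, adjusted p = 1.7e-10). Slc46a3 was at 4.96, 7.92, 5.26, 16.5 and 19.8 at 6 h and 115 to 160.0, median 145, untreated (-3.77 ± 0.30, adjusted p = 3.8e-13), and Slc40a1 at 12.1, 6.86, 13.2, 10.52 and 18.6 at 6 h and 77.2 to 149.8, median 112.9, untreated (-3.09 ± 0.33, adjusted p = 5.0e-10). None of the 3 genes overlapped between the groups. NRAMP1, Slc11a1, was called lower here (-0.38 ± 0.11, adjusted p = 0.0055), which it was not in floxed controls, and the difference between the 2 genotypes was not tested.

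At 48 h, 20 members were higher and 12 lower in doubly floxed controls, with 13.8% and 9.83% of all genes tested. There were 25 within 1 experiment. The summed microglial markers were 23062 to 27020 at 48 h and 36984 to 41143 untreated, and their part in these differences was not tested. Of the members called at 48 h in floxed controls 45% were called in the same direction, which is 56.3% of those called here, with 0 in the opposite direction. Over all genes the shares were 59.1% and 54.3%. Slc2a6 was at 42.1 to 123.6, median 72.6, at 48 h and 2.65 to 6.68, median 3.69, untreated (3.71 ± 0.33, adjusted p = 1.7e-11), without overlap. Slc43a3, which carries purine nucleobases although its family was sorted with amino acids, was at 21.3 to 56.4, median 30.4, at 48 h and 1.81 to 3.98, median 3.55, untreated (3.10 ± 0.42, adjusted p = 3.2e-07). Its level in floxed controls was 3.94 to 25.7, median 13.4, at 48 h and 1.15 to 5.37, median 1.89, untreated, but that time is where the rule found it.

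**Figure D2:**
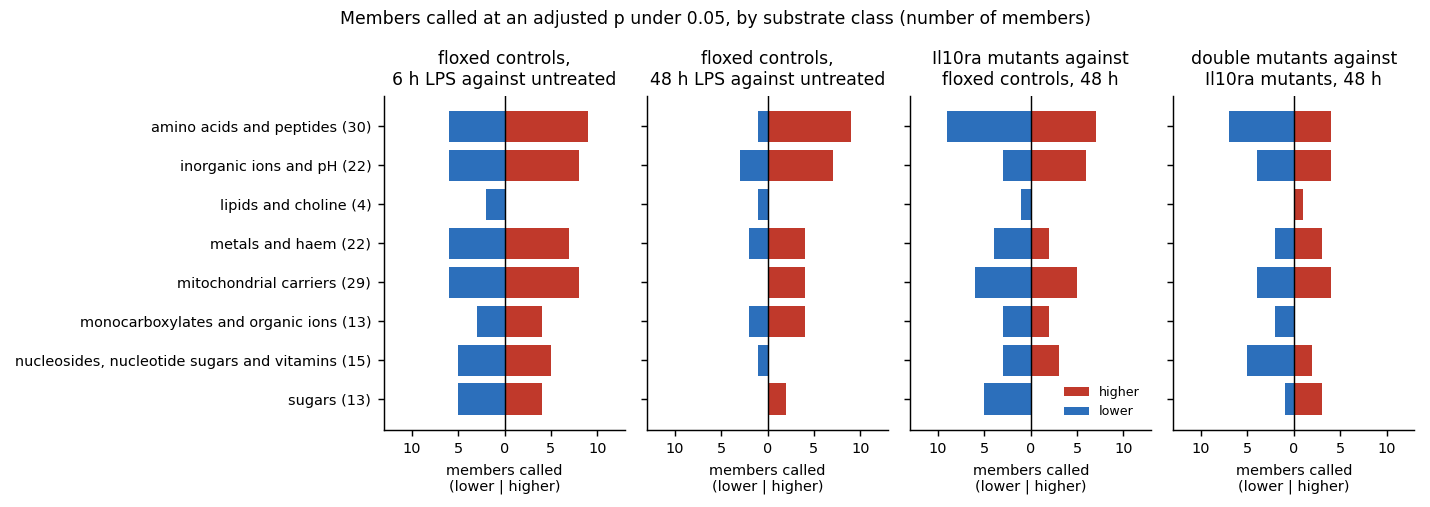
Number of members called at an adjusted p under 0.05 (horizontal axis, lower to the left and higher to the right) in each of 8 substrate classes (vertical axis, with the number of members tested, which is 1 lower for amino acids in the last panel) for 4 comparisons. The class of sugars was called in both directions at 6 h (4 higher, 5 lower) and in 1 direction in Il10ra mutants at 48 h (0 higher, 5 lower), with Slc2a4rg-ps, which is not a transporter, among the 5 lower each time.

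Il10ra mutants were then compared with floxed controls at each time. In untreated mice limma called 0 members (0.00865% of all genes tested), 3 had an unadjusted p under 0.05, and edgeR and DESeq2 also called 0. At 6 h, 1 member was higher and 1 lower in mutants than in floxed controls, with 3.31% of all genes tested called. They were Slc25a28, the mitochondrial iron importer mitoferrin 2 (0.59 ± 0.17, adjusted p = 0.038), and Slc25a45, a mitochondrial carrier (-1.13 ± 0.25, adjusted p = 0.0096). The count was 7 without floxed control replicate 2 or mutant replicate 7, 4 without mutant replicate 2 or 3, and 1 without floxed control replicate 4, 5 or 6 or mutant replicate 1, 4, 5 or 6. Within 1 experiment it was 0, with adjusted p = 0.72 for Slc25a28 and 0.61 for Slc25a45. At 24 h 1 was higher and 4 were lower, with 3.5% of all genes tested called, and Slc37a2 had the lowest adjusted p (-1.23 ± 0.25, adjusted p = 0.0069). That count was 0 without floxed control replicate 3 or 4, 13 without floxed control replicate 1, 25 without replicate 2, and 34, 2, 3 and 2 without mutant replicate 1, 2, 4 and 5 in turn. Within 1 experiment it was 0.

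At 48 h Il10ra mutants had 25 members higher and 34 lower than floxed controls, when 12.7% and 15.2% of all genes tested were called. The members tested include Slc43a3, which met the level rule only through these controls at 48 h. They also include Slc6a12, which met it only with these mutants at 48 h counted. The amino acid importers Slc1a5 and Slc7a1, the lysosomal carrier Slc15a3 and the dicarboxylate carrier Slc13a3 were higher. Slc46a1, Slc46a3, the endosomal exchanger Slc9a9 and 5 of 13 members of the class of sugars were lower, and 1 of these 5 is Slc2a4rg-ps, which is not a transporter (-1.97 ± 0.44, adjusted p = 6.0e-04). The median log2 difference was -0.11 over the members and 0.01 over all genes tested, and the median size of the difference was 0.58 and 0.46. The 5 mutant libraries came from 2 experiments, and since the floxed controls at 48 h stood only in 1 of them, the log2 differences rest on mutant replicates 1 to 3. Within that experiment 80 members were called, with no count over all genes to set beside it. Without mutant replicate 2 the count was 34. The summed microglial markers were lower in the same mutants (9337 to 15789 in mutants and 22839 to 28322 in floxed controls), and their part in these differences was not tested.

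Of the members higher in mutants, Slc15a3 was at 741, 1323, 1122, 1343 and 1329 in Il10ra mutants and 236 to 355, median 273, in floxed controls, a log2 difference of 1.88 ± 0.19, adjusted p = 2.3e-10. Slc13a3 was at 157.9, 879, 379, 276 and 247 in mutants and 64.2 to 100.3, median 77.7, in controls (2.22 ± 0.30, adjusted p = 1.4e-07). All 5 mutants lay above all 6 controls for both genes. Slc7a1 was at 32.6, 57.6, 61.0, 68.3 and 76.6 in mutants and 9.15 to 26.001, median 14.05, in controls (1.65 ± 0.25, adjusted p = 2.4e-06), also without overlap. Slc1a5 was at 45.8, 89.7, 98.7, 60.3 and 69.7 in mutants and 13.7 to 54.4, median 28.2, in controls (1.40 ± 0.33, adjusted p = 0.0012), and there mutant replicate 1 lay within the controls' range. Slc6a12, a betaine and GABA transporter, was at 5.09, 32.02, 8.02, 35.5 and 32.6 in mutants and 0 to 0.763, median 0, in controls (3.34 ± 0.56, adjusted p = 1.1e-05). It was detected at low level, with no read in 4 of 6 controls, and it met the level rule only with these mutants counted. The divalent metal importer Slc11a2 was at 71.3, 341, 184, 306 and 352 in mutants and 63.3 to 126.1, median 73.4, in controls (1.03 ± 0.33, adjusted p = 0.015), but mutant replicate 1 lay among the controls, and it was not called without mutant replicate 2 (0.51, adjusted p = 0.35) or 3 (0.95, adjusted p = 0.07).

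Of the members lower in mutants, Slc46a3 was at 11.2, 3.74, 2.41, 3.55 and 3.79 in Il10ra mutants and 38.3 to 69.1, median 49.4, in floxed controls, a log2 difference of -3.15 ± 0.35, adjusted p = 2.3e-09. Slc46a1 was at 28.5, 15.5, 19.3, 13.3 and 8.34 in mutants and 146.5 to 171, median 163, in controls (-2.92 ± 0.38, adjusted p = 8.1e-08), and Slc9a9 at 15.3, 5.34, 6.42, 7.1 and 3.79 in mutants and 59.1 to 73.6, median 67.1, in controls (-2.87 ± 0.36, adjusted p = 4.5e-08). All mutants lay below all controls for these 3 genes, with mutant replicate 1 the highest of the mutants each time. Slc36a2 was at 0, 0, 0.802, 1.77 and 0.758 in mutants and 3.76 to 13.7, median 8.52, in controls (-2.86 ± 0.41, adjusted p = 7.8e-07). Slc37a2 was at 73.3, 40.6, 52.9, 37.3 and 25.02 in mutants and 137 to 169.6, median 157.5, in controls (-1.50 ± 0.26, adjusted p = 2.0e-05), and the glutamine transporter Slc38a1 was lower without overlap (-1.47 ± 0.25, adjusted p = 1.2e-05). Ferroportin, Slc40a1, was at 43.8, 10.7, 12.03, 10.6 and 11.4 in mutants and 22.8 to 80.8, median 38.1, in controls, which overlap through mutant replicate 1 (-1.13 ± 0.37, adjusted p = 0.016). It was not called without mutant replicate 2 (-0.78, adjusted p = 0.2) or 3 (-0.86, adjusted p = 0.14).

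The response to LPS at 48 h was itself compared between the genotypes. It was higher in Il10ra mutants for 13 members and lower for 22, when 6.74% and 9.64% of all genes tested were called, and without mutant replicate 2 the count was 22 in all. The members lower in response include Slc43a3, which met the level rule only through the floxed controls at 48 h. Those higher include Slc6a12, which met it only with the Il10ra mutants at 48 h counted. Slc46a1 differed in response by -2.76 ± 0.48, adjusted p = 4.9e-05 on the log2 scale. Its level at 48 h was 28.5, 15.5, 19.3, 13.3 and 8.34 in mutants, against 67.5 to 127, median 103, in untreated mutants, whereas floxed controls had 146.5 to 171, median 163, at 48 h and 101 to 129, median 115.9, untreated. Slc9a9 differed by -2.86 ± 0.46, adjusted p = 1.5e-05 and Slc46a3 by -3.02 ± 0.44, adjusted p = 3.2e-06, and Slc15a3 by 1.59 ± 0.24, adjusted p = 5.4e-06 the other way. For Slc7a5 the difference in response was 0.36 ± 0.44, adjusted p = 0.63, and for Slc11a1 it was -0.04 ± 0.19, adjusted p = 0.91, so neither was called.

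Against doubly floxed controls, the differences of Il10ra mutants at 48 h rest on the other 2 mutant libraries, replicates 4 and 5, and on another set of controls. Here 29 of 147 members were higher and 29 lower, with 16.6% and 17.3% of all genes tested, and 64 were called within 1 experiment. Those higher include Slc6a12, which met the level rule only with the Il10ra mutants at 48 h counted. Without mutant replicate 5 the count was 35. Of the 58 members called against floxed controls and tested here, 67.2% were called in the same direction, which is also 67.2% of those called here, with 18 higher and 21 lower in both and 1 called in opposite directions. Over all genes the shares were 64.0% and 52.03%, with 12 called in opposite directions. In the units of this table Slc46a3 was at 3.7 and 3.96 in the 2 mutants and 37.1 to 108.5, median 72.5, in doubly floxed controls (-3.82 ± 0.41, adjusted p = 2.9e-09). Slc15a3 was at 1400.1 and 1389 in the 2 mutants and 186 to 351, median 233, in controls (2.47 ± 0.24, adjusted p = 1.8e-10). Slc3a2, the heavy chain, was at 1429 and 1387 in the 2 mutants and 459.6 to 659, median 551, in controls (1.34 ± 0.17, adjusted p = 4.5e-08), each gene without overlap.

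The member called in opposite directions was Slc7a8, a plasma membrane exchanger of neutral amino acids and another light chain that pairs with Slc3a2. In the table with floxed controls it was at 108.98, 130.2 and 83.4 in mutant replicates 1 to 3 and 393 and 404 in replicates 4 and 5, against 182 to 365, median 263, in floxed controls. The log2 difference from floxed controls was -1.25 ± 0.25, adjusted p = 1.2e-04, and that from doubly floxed controls was 1.31 ± 0.28, adjusted p = 3.4e-04. The low and the high mutants lay on either side of the floxed controls without overlap. Slc2a6 also differed between the sets of mutants, at 36.7, 81.1 and 69.0 in replicates 1 to 3 and 226 and 277 in replicates 4 and 5, with 45.7 to 99.9, median 65.5, in floxed controls. Replicates 4 and 5 lay above every floxed control, whereas replicates 2 and 3 lay within their range and replicate 1 below it. Slc2a6 was not called against floxed controls (-0.17 ± 0.49, adjusted p = 0.83) and was higher against doubly floxed controls (1.76 ± 0.46, adjusted p = 0.0029), a call that was lost without mutant replicate 5 (1.61, adjusted p = 0.065). Without the experiment term Slc7a8 was not called against floxed controls (-0.49, adjusted p = 0.17) or against doubly floxed controls (0.08, adjusted p = 0.85). Experiment and set of mutants cannot be told apart here.

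**Figure D3:**
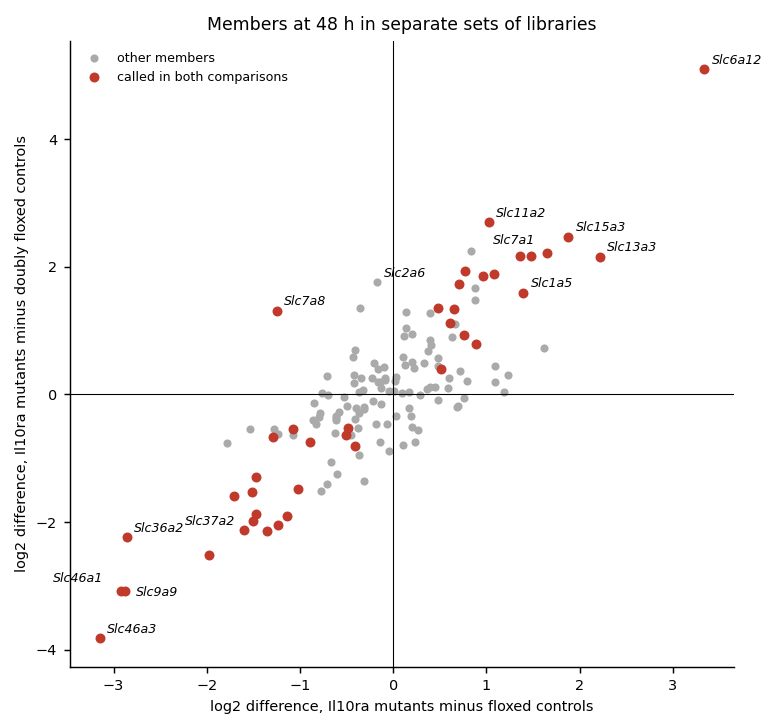
Log2 difference of each member at 48 h between Il10ra mutants and floxed controls (horizontal axis, mutant replicates 1 to 3) and between Il10ra mutants and doubly floxed controls (vertical axis, mutant replicates 4 and 5), with members called in both comparisons in red. Slc46a3, Slc46a1 and Slc9a9 lie at the lower left, Slc6a12 at the upper right, and Slc7a8 is the red point at the upper left.

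**Figure D4:**
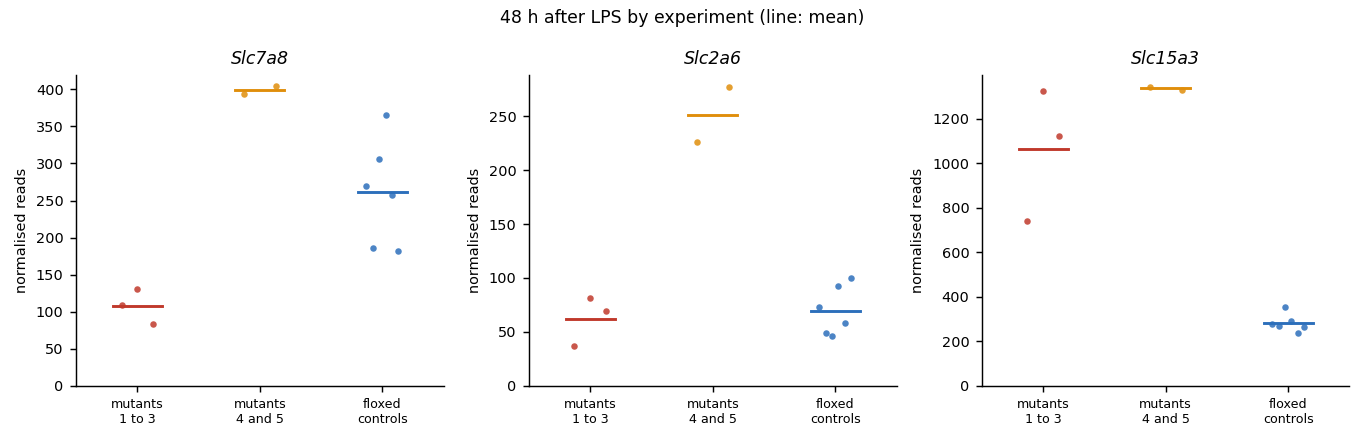
Normalised reads (vertical axis, from 0) of 3 members at 48 h in Il10ra mutants of the 2 experiments and in floxed controls (horizontal axis), with points for libraries and lines for means. Slc7a8 and Slc2a6 differ between the 2 sets of mutants, and all mutants lie above the controls for Slc15a3.

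When Tnf was deleted as well, no member was called against doubly floxed controls by limma at any of the 3 times. In untreated mice 0 of 147 were called (0.0254% of all genes tested), with 13 at an unadjusted p under 0.05 and 0 by edgeR and by DESeq2. At 6 h 0 were called (0.0678%), with 11 at an unadjusted p under 0.05, 0 by edgeR and 2 by DESeq2, and 1 by limma without double mutant replicate 3. At 48 h 0 were called (0.0169%), with 3 at an unadjusted p under 0.05 and 0 by edgeR and by DESeq2. Leaving out the untreated double mutant library whose name calls it a mistake, an alternative chosen after seeing the data, also gave 0. The median size of the log2 difference at 48 h was 0.15 over the members and 0.17 over all genes, and the greatest was 0.995 for the zinc transporter family member Slc39a12. For Slc46a3 the log2 difference was 0.11 ± 0.33, adjusted p = 1 and for Slc15a3 0.01 ± 0.19, adjusted p = 1.

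Double mutants differed from Il10ra mutants at 48 h for 46 of 147 members, 21 higher and 25 lower, with 14.9% and 13.7% of all genes tested. There were 47 within 1 experiment and 28 without mutant replicate 5. This comparison shares its Il10ra mutants with the one against doubly floxed controls, and its log2 differences rest on the same 2 libraries, replicates 4 and 5. Mutant replicates 1 to 3, whose values are also printed, add only to the estimate of the spread. Slc46a3 was at 44.2, 81.5, 99.5 and 85.8 in double mutants and 11.7, 3.93, 2.52, 3.7 and 3.96 in Il10ra mutants, a log2 difference of 3.93 ± 0.44, adjusted p = 1.0e-08. Slc9a9 was at 43.7, 72.2, 58.5 and 81.2 in double mutants and 15.97, 5.61, 6.72, 7.4 and 3.96 in Il10ra mutants (3.31 ± 0.32, adjusted p = 4.6e-10), and Slc46a1 at 95.9, 105.97, 87.8 and 108.3 in double mutants and 29.8, 16.3, 20.2, 13.9 and 8.72 in Il10ra mutants (3.01 ± 0.26, adjusted p = 1.9e-11). All double mutants lay above all Il10ra mutants for these 3 genes.

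Other members were lower in double mutants. Slc15a3 was at 364, 234, 205 and 181 in double mutants and 775, 1391, 1175, 1400.1 and 1389 in Il10ra mutants (-2.47 ± 0.25, adjusted p = 1.3e-09). Slc7a1 was at 22.5, 10.6, 11.7 and 10.2 in double mutants and 34.1, 60.6, 63.8, 71.3 and 80.04 in Il10ra mutants (-2.66 ± 0.48, adjusted p = 4.8e-05), and Slc13a3 at 86.6, 75.5, 79.0 and 88.0 in double mutants and 165, 924, 396, 288 and 258 in Il10ra mutants (-1.67 ± 0.38, adjusted p = 7.3e-04). The groups did not overlap for these 3 genes. Slc6a12 was at 0, 0, 0 and 0 in double mutants, no read in any library, and 5.32, 33.7, 8.4, 37.02 and 34.1 in Il10ra mutants. Slc6a12 met the level rule only with these Il10ra mutants counted. Slc11a2 was lower too (-2.69 ± 0.35, adjusted p = 2.3e-07), as was Slc3a2 (-1.35 ± 0.18, adjusted p = 2.5e-07), while Slc7a5 was not called (-0.79 ± 0.48, adjusted p = 0.23). The summed microglial markers were 20765 to 25656 in double mutants, 9817 to 16502 in Il10ra mutants and 23062 to 27020 in doubly floxed controls. In double and Il10ra mutants in turn, endothelial markers summed to 23.8 to 54.2 and 5.55 to 15.1. Neuron markers summed to 3.09 to 9.03 and 9.24 to 21.3, and oligodendrocyte markers to 71.7 to 91.40 and 91.47 to 129.6. Neutrophil, monocyte, erythroid, border macrophage and astrocyte markers overlapped. The part of any of these in the differences was not tested.

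**Figure D5:**
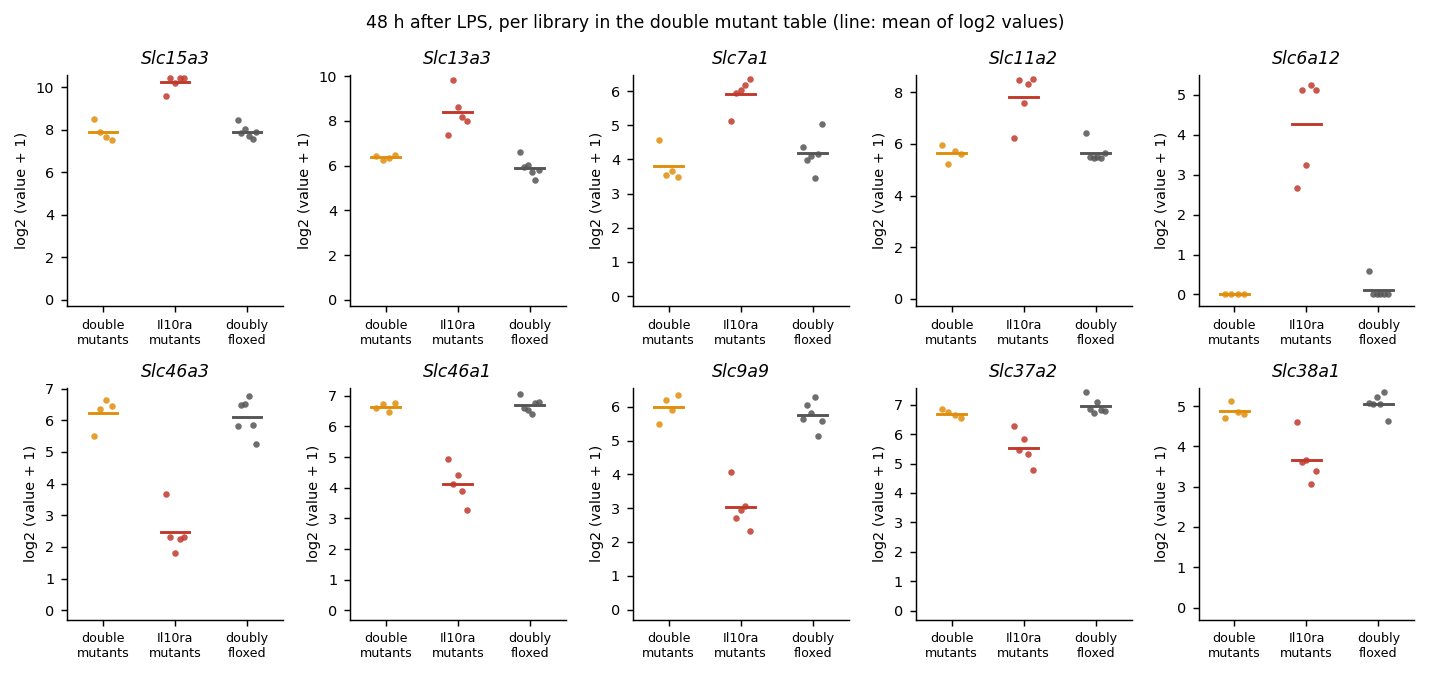
Levels of 10 members per library at 48 h on the log2 (value + 1) scale (vertical axis) in double mutants, Il10ra mutants and doubly floxed controls (horizontal axis), with points for libraries and lines for the mean of the log2 values. Il10ra mutants lie above both other groups for Slc15a3, Slc13a3 and Slc7a1 and below them for Slc46a3, Slc46a1, Slc9a9 and Slc37a2.

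In untreated WT C57BL/6 mice, 15 of 141 members tested differed from untreated floxed controls, 6 higher and 9 lower, when 9.74% of all genes tested were called. The count was 6 without C57BL/6 replicate 1, 8 without C57BL/6 replicate 2, and 9, 8 and 7 without floxed control replicate 4, 5 and 6 in turn, and the floxed controls came from other experiments, which cannot be told apart from the genotype. Slc36a2 was at 9.43, 11.2, 12.1 and 7.002 in C57BL/6 mice and 14.1 to 35.5, median 29.2, in floxed controls (-1.39 ± 0.22, adjusted p = 9.6e-05), without overlap. Slc2a6, the member higher at day 7 after LPS, was at 9.43, 20.6, 3.45 and 7.002 in C57BL/6 mice and 0 to 5.35, median 2.11, in floxed controls (1.66 ± 0.48, adjusted p = 0.025). These groups overlap, and the call was lost without C57BL/6 replicate 1 (adjusted p = 0.064) or 2 (0.13) or floxed control replicate 2 (0.06).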

How the data were processed

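Libraries of sorted microglia were made by MARS-seq with 2.5 mg/kg LPS as the stimulus. The deposited values are a signal per gene, gene reads that the authors divided by a size factor per library, and the reads were assigned on mm10, per the submitters' processing notes. No aligner or counter was given in the sources used here. Whole reads were recovered for 100% of values (tolerance 0.01), with 540642 to 2489084 reads per library. The 4 tables were normalised separately, and tests stayed within a table.

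Values were tested as log2 (value + 1) by limma 3.58.1 (trend, R 4.3.3) over all genes that reached 5 in as many libraries as the smallest group has, with group and an additive term for the experiment in the labels, and Benjamini-Hochberg adjustment in each of 17 comparisons. The same scripts were tested on simulated data. Alternatives were edgeR 4.0.16 and DESeq2 1.42.0 on recovered reads, a pseudocount of 5, no filter, quantile normalization, no experiment term, 1 experiment only, a replicate block and single libraries left out. Replicate numbers did not pair the samples, since no comparison had every correlation of same-numbered libraries over 0.1. The double mutant table held 5 Il10ra mutant libraries, and all 5 entered its fit.

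The members, classes and lists were chosen with earlier results of these data known. Members were named by rule, as the 8 greatest rises and 8 greatest falls among called members that average 20 or more in a group, the 2 highest of each class, and a set list. Members named beside that were chosen after their values were seen. A library at 48 h whose labels disagree on its group was left out, and ATAC-seq peaks were not used here.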

Additional observations from a re-analysis of the deposited data

Results flagged for a closer look

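In 29 of 297 groups of a described member, 1 library stood far from the others of its group, by the ratio of its gap to the range. For normally distributed values the cut-off flags about 1 in 20 groups, or 14.85 of 297. Reads need not be so distributed, and a group with reads in only 1 library is always flagged, as for Slc6a12. The 29 are therefore not a measure of excess over chance. Slc7a8 was at 361 in floxed control replicate 1 (untreated) against 180.4 to 218 in the others and at 165 in Il10ra mutant replicate 5 (24 h) against 106.03 to 112.2 in the others. Slc36a2 was at 15.3 in floxed control replicate 1 (untreated) against 29.9 to 38.2 in the others and at 5.09 in floxed control replicate 6 (6 h) against 1.002 to 2.29 in the others. Slc36a2 was at 0.657 in floxed control replicate 1 (24 h) against 0 in the others. Slc6a12 was at 0.674 in floxed control replicate 5 (untreated) against 0 in the others and at 1.15 in floxed control replicate 4 (6 h) against 0 in the others. Slc6a12 was at 1.14 in Il10ra mutant replicate 9 (untreated) against 0 in the others and at 1.15 in Il10ra mutant replicate 3 (6 h) against 0 in the others. Slc6a12 was at 0.507 in doubly floxed control replicate 2 (48 h) against 0 in the others and at 2.29 in floxed control replicate 1 (day 7) against 0 in the others. Slc15a3 was at 373 in Il10ra mutant replicate 2 (untreated) against 234 to 289 in the others. Slc16a3 was at 181 in Il10ra mutant replicate 7 (6 h) against 68.3 to 109.5 in the others. Slc40a1 was at 34.2 in Il10ra mutant replicate 5 (6 h) against 8.33 to 15.05 in the others and at 43.8 in Il10ra mutant replicate 1 (48 h) against 10.6 to 12.03 in the others. Slc40a1 was at 4.62 in double mutant replicate 1 (6 h) against 11.4 to 14.7 in the others. Slc9a9 was at 113.5 in Il10ra mutant replicate 5 (6 h) against 45.1 to 72.2 in the others and at 15.3 in Il10ra mutant replicate 1 (48 h) against 3.79 to 7.1 in the others. Slc9a9 was at 47.5 in double mutant replicate 2 (6 h) against 23.02 to 31.6 in the others. Slc46a1 was at 40.5 in Il10ra mutant replicate 1 (24 h) against 10.3 to 13.5 in the others. Slc46a3 was at 34 in floxed control replicate 3 (24 h) against 11.2 to 12.2 in the others and at 11.2 in Il10ra mutant replicate 1 (48 h) against 2.41 to 3.79 in the others. Slc25a22 was at 52.3 in floxed control replicate 1 (untreated) against 20.2 to 29.8 in the others. Slc7a1 was at 64.6 in doubly floxed control replicate 4 (6 h) against 125 to 145 in the others and at 22.5 in double mutant replicate 1 (48 h) against 10.2 to 11.7 in the others. Slc2a3 was at 71.4 in double mutant replicate 6 (6 h) against 27.7 to 38.4 in the others. Slc13a3 was at 13.3 in doubly floxed control replicate 6 (untreated) against 26.2 to 33.9 in the others. Slc11a1 was at 645 in doubly floxed control replicate 6 (untreated) against 706 to 723 in the others. Slc11a2 was at 84.8 in doubly floxed control replicate 2 (48 h) against 43.3 to 48.9 in the others. Of these, the Il10ra mutant replicate 1 at 48 h was the highest for Slc40a1, Slc9a9 and Slc46a3.

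The 48 h response to LPS differed between Il10ra mutants and floxed controls, by the interaction term in limma, for 12 of the 20 members described in full. Those 20 were chosen with results of these data known. Over all members it was 35, with 13 higher and 22 lower. The 22 include Slc43a3, which met the level rule only through the floxed controls at 48 h. The 13 include Slc6a12, which met it only with the Il10ra mutants at 48 h counted. Over all genes tested the response was called higher for 6.74% and lower for 9.64%. It was greater in mutants for Slc1a5 (1.52 on the log2 scale, adjusted p = 0.0087), Slc7a1 (0.98 on the log2 scale, adjusted p = 0.028), Slc6a12 (3.25 on the log2 scale, adjusted p = 9.6e-04), Slc15a3 (1.59 on the log2 scale, adjusted p = 5.4e-06), Slc13a3 (2.23 on the log2 scale, adjusted p = 3.2e-05) and Slc11a2 (1.16 on the log2 scale, adjusted p = 0.047). It was lower in mutants for Slc7a8 (-1.45 on the log2 scale, adjusted p = 8.6e-04), Slc36a2 (-3.03 on the log2 scale, adjusted p = 5.0e-05), Slc37a2 (-1.40 on the log2 scale, adjusted p = 0.0022), Slc9a9 (-2.86 on the log2 scale, adjusted p = 1.5e-05), Slc46a1 (-2.76 on the log2 scale, adjusted p = 4.9e-05) and Slc46a3 (-3.02 on the log2 scale, adjusted p = 3.2e-06). For Slc7a8 the difference rests on mutant replicates 1 to 3, at 108.98, 130.2 and 83.4 at 48 h, whereas replicates 4 and 5, at 393 and 404, lay above every untreated mutant (161 to 357, median 293). It was not called without the experiment term (-0.72, adjusted p = 0.17). The call for Slc1a5 was lost without mutant replicate 3 (1.32, adjusted p = 0.053). The call for Slc7a1 was lost without mutant replicate 2 (0.86, adjusted p = 0.12) or 3 (0.82, adjusted p = 0.12), and that for Slc11a2 without mutant replicate 2 (0.64, adjusted p = 0.38) and, with smaller shifts, without most other single libraries.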

How the results depend on the processing

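The number of members called stayed within 1.5 times the main count for the alternatives that were run, apart from those given here. At day 7 quantile normalization called 5. Between Il10ra mutants and floxed controls at 6 h, no experiment term and quantile normalization each called 1, the replicate block 4 and 1 experiment alone 0, and at 24 h no experiment term and quantile normalization each called 8, the replicate block 3, DESeq2 12 and 1 experiment alone 0. The replicate block called 20 members in doubly floxed controls at 48 h and 7 between C57BL/6 mice and floxed controls, and replicate numbers did not pair the samples. DESeq2 called 2 between double mutants and their controls at 6 h. With 1 library left out, the counts ran from 72 to 83 (6 h), 48 to 61 (24 h), 33 to 42 (48 h) and 1 to 4 (day 7) in floxed controls, and from 70 to 76 (6 h) and 26 to 31 (48 h) in doubly floxed controls. Il10ra mutants against floxed controls gave 0 untreated, 1 to 7 (6 h), 0 to 34 (24 h) and 34 to 60 (48 h), with 22 to 39 for the difference in response. Against doubly floxed controls Il10ra mutants gave 35 to 57, double mutants gave 0 untreated, 0 to 1 (6 h) and 0 (48 h), double mutants against Il10ra mutants gave 28 to 49, and C57BL/6 mice against floxed controls gave 6 to 16. For Slc7a8 the difference between double mutants and Il10ra mutants at 48 h was -1.25 ± 0.30, adjusted p = 0.0015, and rests on mutant replicates 4 and 5. It turned to 0.017 with no experiment term, where mutant replicates 1 to 3 also count. Why the sets of mutants differed was not tested. A fit within 1 experiment could not be made for day 7 or C57BL/6 mice, since each is an experiment of its own. The main fit for C57BL/6 mice already had no experiment term. Members with few reads, such as Slc6a12 and Slc36a2, rest on 0 to a few reads in many libraries.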
